A study of Gossypium barbadense and Gossypium hirsutum with 4 samples.

Results

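Chalcone synthase was represented on the cotton array by several probe sets, and 7 of them were chosen by the genotype contrast itself, as probe sets with stronger signal in *G. hirsutum* (*Gh*) than in *G. barbadense* (*Gb*) and with a chalcone synthase annotation. The annotation came from a shortened copy of the study's table, which is limited to signals stronger in *Gh* by 2.0-fold or more (a difference of -1.0 or lower on the log2 scale). The 7 probe sets belong to 6 transcript clusters of the array design. Adding every other probe set of these clusters, whatever its signal, gave 2 more, so that 9 of the 24029 probe sets on the array were examined copy by copy. The tissue was elongating fiber of *Gb* line VH8-4602 (arrays 1 and 2) and *Gh* line Guazuncho 2 (arrays 29 and 30). Both are allotetraploid cottons carrying an A and a D subgenome, grown untreated in soil in a temperature-controlled glasshouse and harvested on the same day. The labels and the methods give a fiber age of 11 days post anthesis (dpa), although the results text of the study places the arrays at an earlier age. Each array received pooled RNA of several plants, and each species was represented by a single line, so that the species and the line cannot be told apart. In such bulk fiber samples, fewer cells of a type and less RNA per cell cannot be told apart either.

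Chalcone synthase condenses a coumaroyl-CoA with malonyl-CoA units into naringenin chalcone, the first committed step from general phenylpropanoid metabolism into flavonoids. In plants the enzyme is commonly encoded by a small gene family whose members differ in tissue and timing, and in a tetraploid cotton each gene can be present as an A and a D copy. Flavonoids of the cotton fiber include the precursors of the condensed tannins that pigment naturally brown fibers. A probe set name tells which species its target came from. Ghi marks a *G. hirsutum* sequence, whereas Gra and GraAffx mark sequences of *G. raimondii*, a diploid close to the D-genome donor. The ending also matters for copies, because the probes of an _s_at set match several transcripts alike and some probes of an _x_at set also match other sequences. Only Ghi.6103.1.S1_at among the 9 carries the plain _at ending of a set designed for a single transcript. A pair of *G. raimondii* probe sets is called here by prefix and ending, Gra A1_s_at and Gra A1_x_at, which are unique among the 9, and their full names stand in the plot of the signals by array.

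Signals below are log2 values after gcrma, the authors' background correction and normalization of the 4 arrays together. A log2 signal under 4 on both arrays of a genotype was treated as below the floor. Folds are *Gh* over *Gb*, and differences are *Gb* minus *Gh* on the log2 scale with a moderated standard error (SE) from limma. Because the 7 annotated probe sets were selected on this contrast, their differences are given as a description without a test. The 9 probe sets fell into 3 groups. There were 3 probe sets bright in both genotypes (a mean of at least 8 in each), 2 below the floor in *Gb* only (with a *Gh* mean of at least 5) and 4 near background (a mean under 5 in each). None was below the floor in *Gh* while above it in *Gb*. Over the whole array these groups held 28.7%, 0.849% and 51.1% of the probe sets. A further 0.529% were below the floor in *Gh* only (with a *Gb* mean of at least 5).

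**Figure D1:**
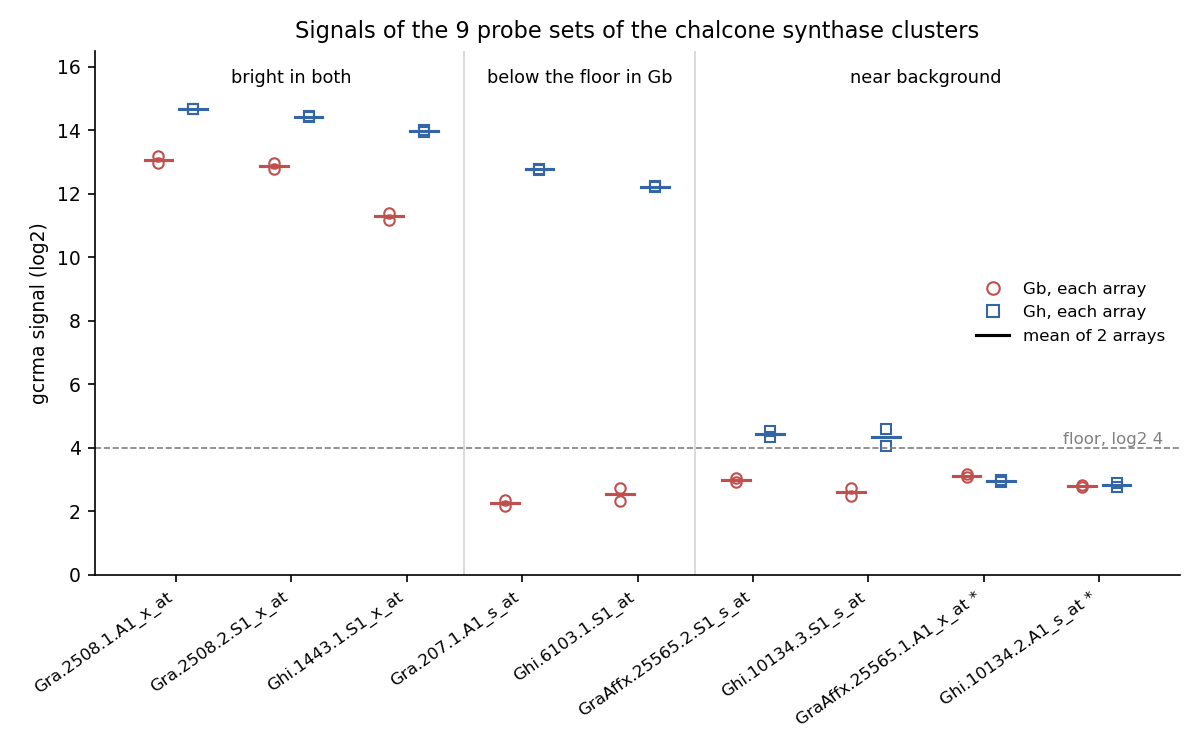
Log2 gcrma signal (vertical axis) of the 9 probe sets on each *Gb* array (circles, left of each position) and each *Gh* array (squares, right), with horizontal bars at the mean of 2 arrays. The dashed line is the floor of log2 4, and an asterisk marks the 2 probe sets that were not in the chosen 7. The first 3 probe sets are bright in both genotypes, the next 2 lie between 2.17 and 2.74 in *Gb* but between 12.20 and 12.78 in *Gh*, and the last 4 stay between 2.47 and 4.60.

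The first of the probe sets below the floor in *Gb* was Gra A1_s_at, whose target is a *G. raimondii* transcript annotated as strongly similar to the naringenin-chalcone synthase of *Arabidopsis thaliana*. Its signal was 2.17 and 2.34 on the *Gb* arrays, against 12.78 and 12.75 on the *Gh* arrays. Both *Gb* values lay below the floor while both *Gh* values exceeded those of most probe sets, with 20.7% of all probe sets dimmer in *Gb* and 96.4% dimmer in *Gh*. Counted against the floor, *Gh* was at least 434-fold higher. The fitted difference of -10.51 ± 0.07 (moderated SE, n = 2 each) rests on background readings in *Gb*, so that its size beyond the bound is not informative.

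Ghi.6103.1.S1_at behaved alike, although it was designed from a *G. hirsutum* fiber transcript that the annotation calls only moderately similar to the *A. thaliana* enzyme. Its signal was 2.32 and 2.74 in *Gb*, against 12.24 and 12.20 in *Gh*. The *Gb* arrays were again both below the floor, and the genotypes were separated by 9.46 between their nearest arrays. *Gh* was at least 298-fold higher than the floor, and the fitted difference of -9.69 ± 0.17 again rests on background readings in *Gb*.

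A strong *Gh* signal without a *Gb* signal was rare on the array. Of the 24029 probe sets, 204 lay below the floor in *Gb* with a *Gh* mean of at least 5. The median *Gh* signal of these 204 was 6.47. Only 4 of them had a *Gh* mean of at least 12, and 2 of the 4 were Gra A1_s_at and Ghi.6103.1.S1_at. Both had been chosen for a stronger signal in *Gh*, so their place among the 4 is a description and no test. The others were Ghi.8424.1.A1_at and Ghi.4991.1.S1_x_at, for which the annotation used here gives no protein name. In the opposite direction 127 fell below the floor in *Gh* with a *Gb* mean of at least 5, and 0 of them reached a *Gb* mean of 12. A signal below the floor in *Gb* shows that the probes found little matching target there. Whether *Gb* copies differ in sequence at these probes was not tested.

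**Figure D2:**
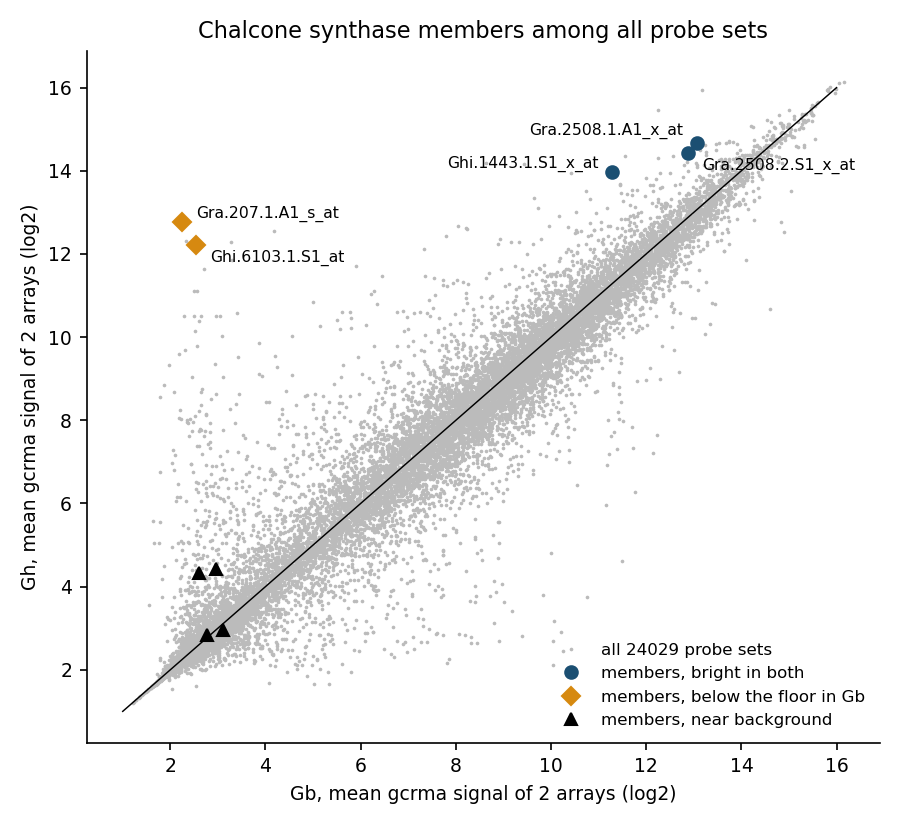
Mean log2 gcrma signal of 2 arrays in *Gb* (horizontal axis) and in *Gh* (vertical axis) for all 24029 probe sets (grey), with the line of equal signal. Diamonds mark the 2 members below the floor in *Gb* with a *Gh* mean of at least 5, at *Gh* means of 12.76 and 12.22. Circles mark the 3 members bright in both, all above the line, and triangles the 4 members near background.

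The 3 bright probe sets carried the signal that both genotypes shared. Gra A1_x_at, designed from a *G. raimondii* chalcone synthase transcript, was the brightest of the 9 on every array. It gave 13.20 and 12.95 in *Gb*, against 14.66 and 14.67 in *Gh*. Both *Gh* values were higher than both *Gb* values, and the difference was -1.59 ± 0.10, or 3.01-fold. Its neighbor in the same cluster, Gra.2508.2.S1_x_at, gave 12.96 and 12.79 in *Gb*, against 14.41 and 14.44 in *Gh*, a difference of -1.55 ± 0.07, or 2.93-fold. The probe sets of this cluster kept a nearly constant distance, with Gra A1_x_at ahead by 0.24 and 0.16 on *Gb* arrays 1 and 2 and by 0.25 and 0.23 on *Gh* arrays 29 and 30. Both are _x_at sets of one cluster, so that they may read overlapping pools of transcripts and are not independent copies.

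Ghi.1443.1.S1_x_at, from a *G. hirsutum* transcript strongly similar to the *A. thaliana* enzyme, was bright in both genotypes with a wider gap. It gave 11.40 and 11.18 in *Gb*, against 14.01 and 13.94 in *Gh*. The nearest arrays of the genotypes were 2.55 apart, and the difference was -2.68 ± 0.09, or 6.43-fold. Among the 6888 probe sets bright in both genotypes the median difference was 0.06. A difference as low as that of Ghi.1443.1.S1_x_at was found for 27 of them, itself included (0.392%), and one as low as that of Gra.2508.2.S1_x_at for 127 (1.84%). Both probe sets had been chosen on this contrast, so a place toward that end partly follows from the choice. The *Gb* arrays were less alike than the *Gh* arrays for these 3 probe sets. Array 1 exceeded array 2 by 0.17 to 0.24 in *Gb*, against gaps of 0.01 to 0.06 between the *Gh* arrays, and the median gap over all probe sets bright in both was 0.10 in *Gb* and 0.09 in *Gh*. The gaps between replicates were therefore several times smaller than the differences between genotypes.

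The other 4 probe sets stayed near background. Ghi.10134.3.S1_s_at, from a *G. hirsutum* transcript strongly similar to the *A. thaliana* enzyme, gave 2.72 and 2.47 in *Gb*, against 4.60 and 4.04 in *Gh*. GraAffx.25565.2.S1_s_at, a *G. raimondii* transcript that carries the name chalcone synthase through Blast2GO alone, gave 3.03 and 2.91 in *Gb*, against 4.51 and 4.33 in *Gh*. Both were below the floor on the *Gb* arrays and only just above it on the *Gh* arrays, so that their differences of -1.72 ± 0.25 and -1.45 ± 0.09 compare a background reading with one close to background. Their *Gh* means of 4.32 and 4.42 were close to the middle of the array, with 49.9% and 50.3% of all probe sets dimmer. GraAffx.25565.2.S1_s_at was also the member nearest to the limit of 2.0-fold in *Gh*, and no other probe set of the 6 clusters lay between it and the 2 probe sets outside that limit.

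Neither of those 2 probe sets differed past the threshold. Ghi.10134.2.A1_s_at gave 2.81 and 2.75 in *Gb*, against 2.90 and 2.77 in *Gh*, and the genotypes overlapped. Its difference was -0.05 ± 0.06 (limma adjusted p = 0.508). GraAffx.25565.1.A1_x_at gave 3.16 and 3.06 in *Gb*, against 2.97 and 2.92 in *Gh*. Here both *Gb* values were the higher ones, but the difference of 0.16 ± 0.05 did not pass the threshold (limma adjusted p = 0.141, unadjusted p = 0.0444). Thus 0 of these 2 probe sets passed limma (Benjamini-Hochberg adjustment across the array), where 20.3% of the array did so in either direction, and 1 of the 2 had an unadjusted p under 0.05. With scaling to the hybridization controls the difference of GraAffx.25565.1.A1_x_at turned to -0.13, and with array medians subtracted that of Ghi.10134.2.A1_s_at turned to 0.03. Both remained below the floor on all 4 arrays, where a signal gives no information on whether the transcript differed. They were outside the chosen 7 because they are not among the table rows used here, which hold only differences of -1.0 or lower.

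Of the 6 clusters, 3 held a pair of probe sets each. The differences of the Gra _x_at pair spanned 0.04 on the log2 scale, with all signals far above the floor, and the median span over the 3257 clusters of the array with at least 2 probe sets was 0.24. The Ghi.10134 pair spanned 1.67 and the GraAffx.25565 pair 1.62, but both spans were built mostly on readings below the floor. With such signals set to the floor, an alternative added after the values had been seen, they were 0.32 and 0.42, against a median of 0.21 over the clusters. In both pairs one probe set had also been chosen for its difference, so that the spans are given as a description. The clusters of Gra A1_s_at, Ghi.6103.1.S1_at and Ghi.1443.1.S1_x_at held a single probe set each.

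Added up on the linear scale, the 9 probe sets gave 20082 and 17382 units on the *Gb* arrays, against 75973 and 75681 on the *Gh* arrays. The sum averaged 18732 in *Gb* (SD 10.2% of the mean, n = 2) and 75827 in *Gh* (SD 0.273% of the mean, n = 2), 4.05-fold, and the genotypes did not overlap. The sum follows the brightest probe sets, it depends on the affinity of their probes, and targets shared between probe sets are counted more than once, so that it is an index of chalcone synthase signal and not an amount of transcript. The log2 ratio of the sums was -2.02. With only the brightest probe set of each cluster it was -2.27, an alternative added after the values had been seen. The plain _at probe set alone, Ghi.6103.1.S1_at, was below the floor in *Gb* and gives only the bound stated above.

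**Figure D3:**
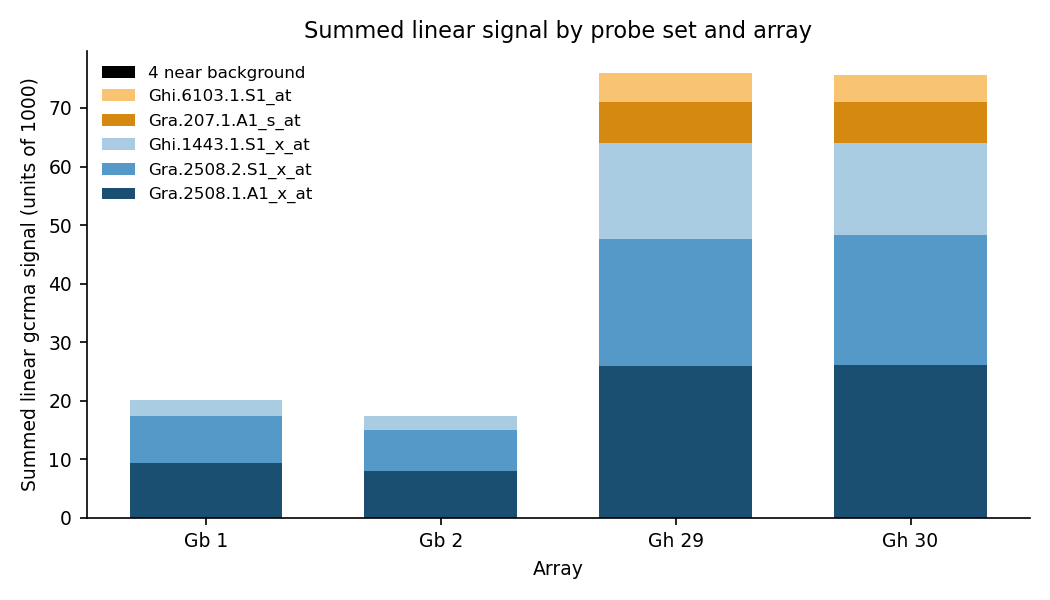
Summed linear gcrma signal (vertical axis, from 0, in units of 1000) of the 9 probe sets on *Gb* arrays 1 and 2 and *Gh* arrays 29 and 30, stacked by probe set. The blue shades, bright in both genotypes, make up 99.8% of the sum on each *Gb* array, and the orange shades, below the floor in *Gb*, add 15.6% and 15.3% on the *Gh* arrays. The 4 probe sets near background are too small to be seen.

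The same probe set dominated in both genotypes, but with a different share. Gra A1_x_at contributed 46.7% and 45.6% of the summed signal on the *Gb* arrays, against 34.1% and 34.5% on the *Gh* arrays. These shares count its cluster by both probe sets, and with one probe set per cluster its share averaged 77.3% in *Gb* and 48.3% in *Gh*. Gra.2508.2.S1_x_at followed with 39.7% and 40.8% in *Gb*, against 28.6% and 29.4% in *Gh*. Ghi.1443.1.S1_x_at had the smaller share in *Gb*, with 13.4% on both arrays, against 21.6% and 20.8% in *Gh*. The 3 bright probe sets thus accounted for 99.8% of the sum on each *Gb* array, and for 84.3% and 84.7% on the *Gh* arrays. The rest in *Gh* came from Gra A1_s_at, with 9.24% and 9.08%, and Ghi.6103.1.S1_at, with 6.37% and 6.20%. The near-background probe sets together contributed 0.153% and 0.162% in *Gb*, against 0.0819% and 0.0673% in *Gh*.

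The excess of the *Gh* sum was mostly borne by the probe sets that were bright in both genotypes. The mean sums differed by 57095 units, of which Gra A1_x_at made up 30.3%, Gra.2508.2.S1_x_at 25.3% and Ghi.1443.1.S1_x_at 23.8%. Gra A1_s_at made up 12.2% and Ghi.6103.1.S1_at 8.34%. The Gra _x_at pair belongs to one cluster and may count the same transcripts more than once. All 3 bright probe sets are _x_at sets, so these parts cannot be assigned to single copies. With the 3 bright probe sets alone the sum averaged 18692 units in *Gb* and 64060 in *Gh*, which is still 3.43-fold. The probe sets with the most extreme ratio were therefore not those with the largest part of the summed difference.

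For the probe sets whose profile over the 4 arrays was most like these copies, the distance between profiles (Euclidean, on log2 signals of 4 arrays) was used as a description. Outside the members, Ghi.8424.1.A1_at was nearest to Gra A1_s_at at a distance of 0.68, with 2.32 and 2.33 in *Gb*, against 12.23 and 12.38 in *Gh*. Ghi.6103.1.S1_at lay at 0.88 from Gra A1_s_at, and the next outside the members were Ghi.4991.1.S1_x_at at 1.59 and GhiAffx.10800.1.S1_at at 1.73. None of these 3 has a protein name in the annotation used here. Nearest to Gra A1_x_at was GraAffx.8958.1.S1_s_at at 0.23, annotated as a xyloglucan endotransglycosylase, an enzyme that cuts and rejoins cell wall xyloglucan. It gave 13.33 and 13.14 in *Gb*, against 14.61 and 14.65 in *Gh*. The tubulin probe set Ghi.8448.1.S1_x_at (beta-tubulin 1) followed at 0.31 and the cytochrome b5 probe set Ghi.4548.2.S1_s_at at 0.51, with Gra.2508.2.S1_x_at at 0.45 between them.

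Chalcone synthase sits in the middle of a longer route, and the same table named 23 probe sets of 11 further enzymes along it, all with stronger signal in *Gh* because the rows used hold no others. Their differences ranged from -7.54 to -1.01 with a median of -1.93, against a median of -1.72 for the 7 chalcone synthase probe sets and 0.04 for all probe sets. With signals below the floor set to it, the medians were -1.93 for the 23 and -1.59 for the 7. As they were also selected on the contrast, the 21 of 23 that passed limma with Benjamini-Hochberg adjustment (all higher in *Gh*, as 8.87% of the array was) are stated as a description only. Of the steps before chalcone synthase, phenylalanine ammonia-lyase, which opens the phenylpropanoid route, had its widest difference at Gra.2682.2.S1_s_at, with 8.35 and 7.98 in *Gb*, against 11.04 and 11.60 in *Gh* (-3.15 ± 0.27). Cinnamate 4-hydroxylase, the next enzyme, had it at Gra.2967.2.S1_s_at, with 6.65 and 5.91 in *Gb*, against 9.65 and 9.91 in *Gh* (-3.50 ± 0.31). The 4-coumarate-CoA ligase probe set Ghi.3946.2.S1_s_at, for the enzyme that makes the coumaroyl-CoA substrate, was dim in both (-1.14 ± 0.16).

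Among the steps after chalcone synthase, most differences were of the same order as those of the 3 bright chalcone synthase probe sets. Both sets were selected on this contrast, and the table rows used hold no small or opposite differences. The value given first for each enzyme is also the largest difference among its probe sets in those rows. The likeness is therefore partly built in by the choice and is given as a description only. The chalcone isomerase probe set GhiAffx.26824.1.A1_s_at, for the enzyme that closes the ring to a flavanone, differed by -1.54 ± 0.11. Flavanone 3-hydroxylase, which makes dihydroflavonols, differed by -1.94 ± 0.16 at Gra.2794.2.S1_s_at. The B-ring hydroxylases followed with -1.74 ± 0.18 at Gra.605.2.A1_x_at (flavonoid 3'-hydroxylase) and -1.92 ± 0.21 at Ghi.2175.1.S1_s_at (flavonoid 3',5'-hydroxylase). Dihydroflavonol 4-reductase, which reduces dihydroflavonols to leucoanthocyanidins, was the exception. The probe set GraAffx.32888.2.S1_s_at of this enzyme gave 2.99 and 2.93 in *Gb*, against 10.51 and 10.49 in *Gh* (-7.54 ± 0.04). It was the only one of the 23 that was, like 2 of the chalcone synthase probe sets, below the floor in *Gb* and clearly above it in *Gh*. The other probe set of its cluster, GraAffx.32888.1.A1_at, was near background in both genotypes. That one gave 2.09 and 2.07 in *Gb*, against 3.66 and 2.84 in *Gh* (-1.17 ± 0.33). Anthocyanidin synthase differed by -2.03 ± 0.10 at Ghi.1234.1.S1_s_at, leucoanthocyanidin reductase by -2.45 ± 0.24 at Ghi.2177.1.S1_s_at, and anthocyanidin reductase, the last enzyme toward flavan-3-ols on the list, by -1.22 ± 0.03 at GraAffx.21935.1.S1_s_at.

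The clusters of these enzymes held 7 further probe sets that are not among the table rows used here. All 7 were near background in both genotypes, as were the 2 such probe sets of the chalcone synthase clusters. All of them carry the letter A in the name, as do Gra A1_s_at and Gra A1_x_at. Over the array 67.0% of the probe sets with this letter were near background, against 38.2% with the letter S and 51.1% of all. Most of these probe sets were also designed from *G. raimondii*, and 77.0% of all such designs were near background, against 40.2% of those from *G. hirsutum*. The part of either design property in the dimness was not tested, and the dimness is not read as a finding about the gene copies. The differences of the 7 ranged from -1.26 to 0.16. Of the 7, 0 were higher in *Gh* by limma and 1 was higher in *Gb*, against 11.4% of the array in that direction. That was Gra.2967.1.A1_x_at of the cinnamate 4-hydroxylase cluster, with 2.74 and 2.74 in *Gb*, against 2.59 and 2.56 in *Gh*. The difference was 0.16 ± 0.03 (limma adjusted p = 0.0468), entirely below the floor, and turned to -0.13 with scaling to the hybridization controls.

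**Figure D4:**
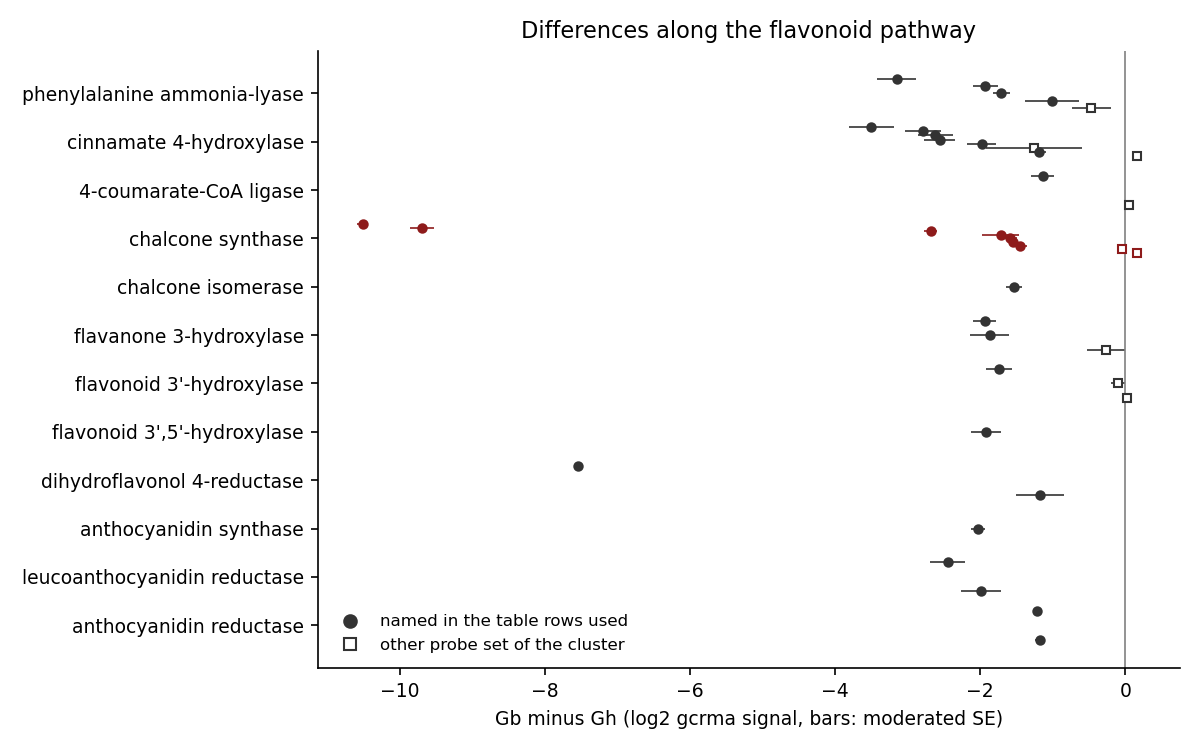
Difference *Gb* minus *Gh* in log2 gcrma signal (horizontal axis, bars are the moderated SE) for each probe set of the chalcone synthase clusters (red) and of 11 other enzymes in pathway order (black). Filled circles were named in the table rows used and were chosen on this contrast, and open squares are the other probe sets of the same clusters. The 2 leftmost points, at -10.51 and -9.69, are chalcone synthase probe sets, followed by dihydroflavonol 4-reductase at -7.54, and the open squares lie between -1.26 and 0.16.

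Array medians were 4.26 and 4.28 in *Gb*, against 4.36 and 4.34 in *Gh*. The 4 arrays had been normalized together, so that these medians cannot show whether the samples were alike beforehand. A sign of RNA quality differed between the genotypes on average, and also between the *Gh* arrays. The signal at the 5' end minus that at the 3' end of the cotton control transcripts differed by -0.70 for actin, -0.84 for ss1 and -0.30 for ubq11 on average (*Gb* minus *Gh*, log2). On *Gb* arrays 1 and 2 and *Gh* arrays 29 and 30 it was -3.03, -3.07, -2.52 and -2.18 for actin. For ss1 it was -4.87, -5.04, -4.62 and -3.62, and for ubq11 -1.94, -1.80, -1.79 and -1.36. The part of RNA quality in the differences of the chalcone synthase probe sets was not tested. Scaling to the hybridization controls moved the median difference of all probe sets by -0.29, and the differences of the members moved with it.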

How the data were processed

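Fiber RNA of 2 *Gb* and 2 *Gh* samples was hybridized to one array each, with RNA pooled from 4 plants. The authors normalized the scanner data with gcrma, which the submitters' processing notes list without a version, and the deposited values are log2 signals with a column per array. The arrays' number limits the precision, and no detection calls were used. The methods call the arrays of a genotype independent replicates.

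The 103 control probe sets were left out and 24029 tested with limma 3.58.1 in R 4.3.3 (lmFit, eBayes, two-sided, Benjamini-Hochberg adjustment, threshold 0.05), a step that was checked on simulated data. An exact permutation test of 2 arrays against 2 cannot go below p = 0.333. Members and lists were chosen, and the limits of the groups set, with earlier results of these data known. Every member is named. Of each other enzyme the named probe sets are the one of the study's table with the largest difference, and up to 2 past the threshold that the rows used do not name. For dihydroflavonol 4-reductase the other probe set of the cluster is named too. The 3 probe sets nearest to each of 2 members are named as well. Names came from the first 1159 rows of that table, all at least 2.0-fold higher in *Gh*, and whether its further rows name other members was not examined here. Its intensities and p-values were not used. No flavonol synthase was matched, and the tissue label was not checked against markers, since names were at hand only for probe sets chosen on the contrast. No sequence of the probes or targets was used here, and the *Gb* gene table shares no identifier with the 9 members. Alternatives were other adjustments, variance models, filters, scalings, floors and sets of summed probe sets, and leaving out each array. The alternative called the methods' t-test was rebuilt from their description, with the limits for extremes of variance set here. Its counts are therefore not those of the study. Plots were drawn with matplotlib 3.10.9.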

Additional observations from a re-analysis of the deposited data

How the results depend on the processing

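The 9 probe sets kept their groups under every scaling, floor and left-out array tried. The limit of 5 in the group definitions was not varied, and it lies not far above the *Gh* means of 4.32 and 4.42 of Ghi.10134.3.S1_s_at and GraAffx.25565.2.S1_s_at. The values of the chosen 7 were also known when the limits were set. The 2 probe sets outside the chosen 7 stayed uncalled in each setting that tested them. Their small differences changed sign, for Ghi.10134.2.A1_s_at to 0.03 with array medians subtracted and 0.01 without *Gh* array 29 (-0.12 to 0.01 over the left-out arrays), and for GraAffx.25565.1.A1_x_at to -0.13 with scaling to the hybridization controls, which also turned Gra.2967.1.A1_x_at to -0.13. That last probe set also lost its call with cyclic loess, a robust prior, the methods' t-test and each array left out. The median difference of the chosen 7 (-1.72) was -2.02 with hybridization-control scaling and between -2.00 and -1.60 with an array left out. The log2 ratio of the sums (-2.02) was -2.32 with that scaling, -9.68 with plain _at probe sets alone, where a single probe set is left (share 100%), below the floor in *Gb*, so that only its bound of at least 298-fold holds, and -2.27 with one probe set per cluster, where the brightest held 77.3% in *Gb* and 48.3% in *Gh*. Of all 24029 probe sets 4880 were called, against 33 with Bonferroni adjustment, 7328 with the methods' t-test and Benjamini-Hochberg adjustment, 3908 with the same test and the Bonferroni adjustment of the methods, 1978 with a difference of at least 1, 7747 with hybridization-control scaling (1990 higher in *Gb*, 5757 higher in *Gh*, against 2749 and 2131) and 2542 to 3947 with an array left out (2798 without *Gb* array 1, 2542 without *Gb* array 2). Among the pathway probe sets, 21 of the 23 chosen on the contrast were called, all higher in *Gh*. Of the 7 others 1 was called, higher in *Gb*, and 20.3% of the array was called in either direction. With Bonferroni adjustment 1 pathway probe set was called, higher in *Gh*. Counts that include the 23 partly follow from their choice and are a description only. Calls among the pathway probe sets ranged up to 27, with hybridization-control scaling. Of the 341 values recomputed in all, 29 lost a call. All of them were differences of pathway probe sets given by name above, including Gra.2967.1.A1_x_at, which the table rows used do not name. A span as wide as that of GraAffx.25565 was found in 6.91% of the clusters, and in 33.8% with signals below the floor set to it. No paired analysis was made, because the labels give no pairing of *Gb* arrays with *Gh* arrays.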
